A study of Mus musculus with 6 samples.

Results

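The genes described here are those of mouse cornea that encode the protein subunits of the cytosolic ribosome. They were taken from the gene table by symbol: every symbol that starts with Rpl or Rps followed by a digit, together with Rpsa, Rplp0, Rplp1 and Rplp2. Symbols containing -ps (222 rows named as pseudogenes), Rps27a and the 10 Rps6k kinase rows were dropped. This gave 92 genes of the 35673 in the table, of which 30 encode standard proteins of the small (40S) subunit and 46 standard proteins of the large (60S) subunit. The other 16 carry such a symbol but are paralogs, retrogenes, pseudogenes or genes named after a ribosomal protein. In GENCODE M21 (GRCm38), Rpl32l, Rpl6l, Rps3a2 and Rps3a3 are annotated as processed pseudogenes and Rpl37rt as a transcribed processed pseudogene. Another of the 16, Rps19bp1, encodes a protein that binds Rps19 and is not itself a ribosomal subunit.

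RNA of whole cornea was sequenced in 6 libraries, 3 titled Control and 3 titled Cationorm, from male C57BL/6J mice aged 6 to 8 weeks whose treatment label reads wild-type in all 6. Cationorm is a cationic oil-in-water emulsion used as an artificial tear. In the protocol of the series, a contact lens-related dry eye was induced with drops of 0.1% benzalkonium chloride, a detergent preservative, and 6 h of lens wear a day, and Cationorm was then given as drops of 5 μL for 14 days. The condition label of all 6 libraries is the dry eye model, while the design text also names an untreated Control group and a saline arm, so the labels do not settle whether the Control mice carried the model. Whether each replicate is a separate animal is not stated, so the spread behind the p-values may be a technical one.

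Each ribosome holds 1 copy of most of these proteins, and their mRNAs are among the most abundant of any cell. In mammals many of these mRNAs begin with a C followed by a run of pyrimidines at the cap, the 5′ terminal oligopyrimidine (TOP) tract, through which the mTOR pathway sets how strongly they are translated. RNA-seq measures how much of the mRNA is present and not how much of it is translated.

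The libraries held 32486043 to 39193311 counts. No gene of the 18804 tested passed an adjusted p of 0.05 in edgeR's quasi-likelihood test with Benjamini-Hochberg adjustment, and markers of the corneal epithelium made up 5.99 ± 0.225% of counts in Control and 6.01 ± 0.152% in Cationorm (SD, n = 3 each). Markers of neighbouring tissues were present in every library. The 15 retina markers summed to 0.682 to 0.998% of counts in Control and 0.279 to 0.825% in Cationorm, the 15 lens markers to 0.0101 to 0.372% and 0.188 to 0.740%, and the 13 markers of iris and pigmented cells to 0.0512 to 0.126% and 0.137 to 0.167%. The last of these did not overlap between the groups, none of these markers was at 0 in all libraries, and their part in the results below was not tested. In bulk tissue, fewer cells of a type and less RNA per cell cannot be told apart.

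All 92 genes had counts in all 6 libraries, the lowest being 1 count of Rpl27rt in Cationorm 1. Together they took up 3.30%, 3.32% and 3.13% of counts in Control 1, 2 and 3, and 2.95%, 3.31% and 3.10% in Cationorm 1, 2 and 3. The means were 3.25 ± 0.104% in Control and 3.12 ± 0.181% in Cationorm (SD, n = 3 each). The groups overlapped, since Cationorm 2 was as high as the 2 highest Control libraries and Control 3 lay with Cationorm 3. The 40S core took up 1.29 ± 0.0354% of counts in Control and 1.26 ± 0.0648% in Cationorm, and the 60S core 1.92 ± 0.0685% and 1.83 ± 0.115%.

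Of the 92 genes, 91 passed the filter on low counts, and Rpl27rt did not. None of the 91 was called at an adjusted p of 0.05, in either direction, and the smallest adjusted p among them was 0.550 (edgeR). The share called among all genes tested was 0% higher and 0% lower. DESeq2 called 46 genes higher and 5 lower, none of them a member. At an unadjusted p under 0.05, 3 members were higher in Cationorm, against 5.16% of all genes, and 4 were lower, against 3.57%. Normalised values did not overlap between the groups for 8 members that were higher and 5 that were lower in Cationorm, while the shares over all genes were 8.73% and 6.09%. These 13 of 91 are 14.3% of the members, close to the 14.8% of all genes tested. The fitted fold change was above 0 for 32 members and below 0 for 59, and the median was -0.04 (log2) against 0.01 over all genes. How many members lay above 0 depended on single libraries: 15 of 91 were higher without Cationorm 2, where 46.6% of all genes were, and 42 without Cationorm 1, where 49.2% were. The members lower without overlap numbered 42 of 91 without Cationorm 2 and 23 without Control 3, against 12.0% and 15.7% of all genes in the same settings, in which 1 arm has 2 libraries and fewer genes overlap.

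The 2 subunits had nearly the same medians. Of the 40S core, 10 of 30 genes were higher in Cationorm (median log2 fold change -0.05). Of the 60S core, 16 of 46 were higher (median -0.05). At an unadjusted p under 0.05 (edgeR), 3 of the 40S genes were higher and 2 lower. Of the 60S genes 0 were higher and 1 lower, against 5.16% and 3.57% of all genes. Without overlap, 5 of the 40S genes were higher and 2 lower. The 60S numbers were 3 and 1, against 8.73% and 6.09% of all genes. For 68 of the 73 core genes that have no other gene annotated over their coding sequence on the same strand, the whole 95% interval of the log2 fold change lay inside ±0.5. The exceptions were Rpl17, Rpl18, Rpl21, Rpl39 and Rps27. For most of these genes a change of the size of 0.5 on the log2 scale thus lay outside the interval. The median interval reached 0.18 to either side of its estimate, and changes smaller than that reach could not be told from the spread. The intervals are not adjusted for the number of genes. Those of Rps4x (0.06 to 0.36), Rps3a1 (0.03 to 0.32) and Rps6 (0.02 to 0.30) lay above 0. Those of Rps27 (-0.63 to -0.04) and Rps14 (-0.47 to -0.004) lay below 0, and none of these genes passed the adjusted test.

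**Figure D1:**
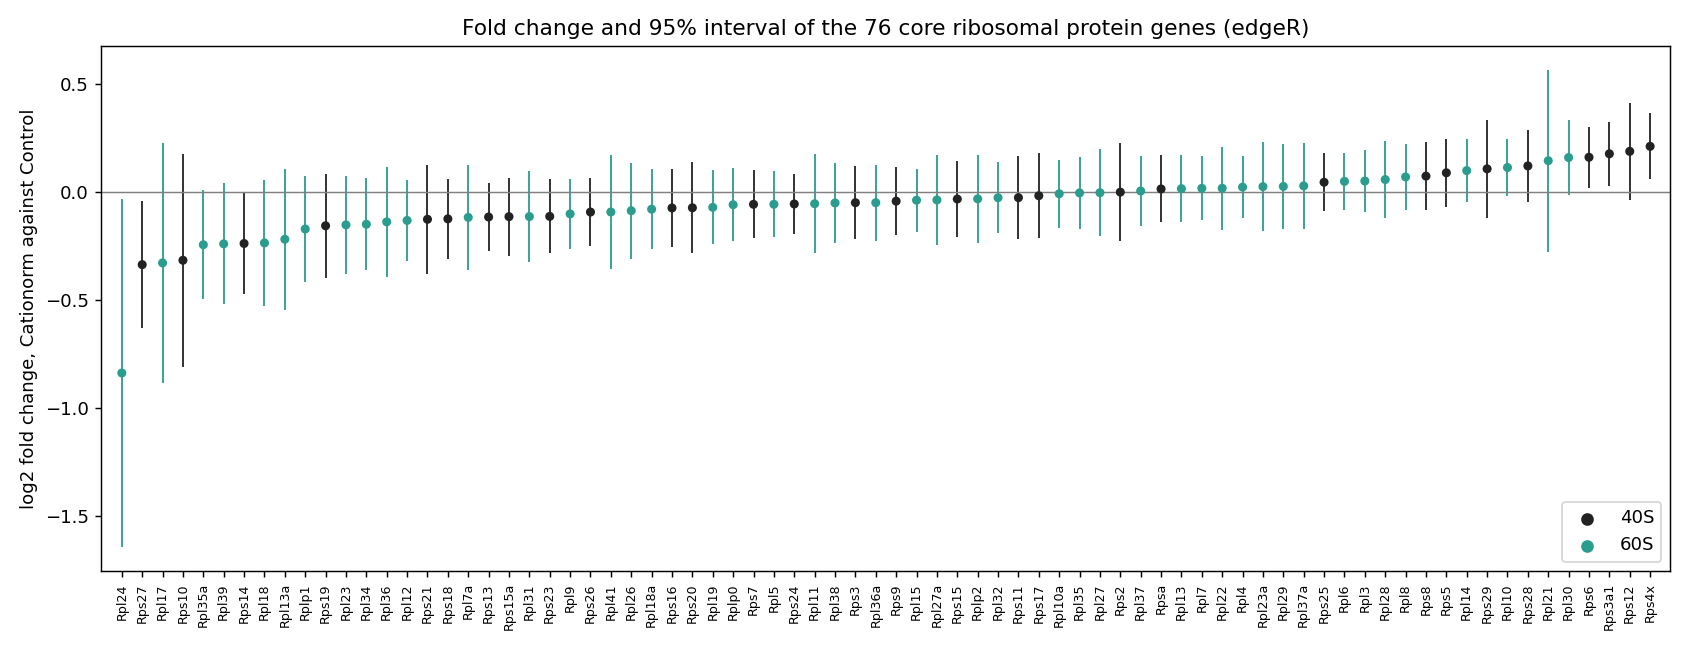
Log2 fold change (Cationorm against Control, edgeR) of the 76 core genes in order of size, with bars for the 95% interval; 40S genes are black and 60S genes green. Most points lie between -0.25 and 0.2, and the widest bars belong to Rpl24, Rpl17, Rps10 and Rpl21.

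The annotated starts of the 4 genes of the 40S subunit with the smallest p differ in whether the TOP tract stands there. A start that is annotated a few bases off would not show it. Each line gives 15 bases before and 15 bases from the annotated start, on the transcript's strand (RefSeq, GRCm38.p6), with the unbroken run of pyrimidines from the start in capitals. The windows are chr4:86857353-86857382 for Rps6, chr3:90213634-90213663 for Rps27, chrX:102189377-102189406 for Rps4x and chr3:86142654-86142683 for Rps3a1, all on the minus strand.
Rps6: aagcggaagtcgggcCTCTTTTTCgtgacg
Rps27: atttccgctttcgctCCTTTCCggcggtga
Rps4x: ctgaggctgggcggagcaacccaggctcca
Rps3a1: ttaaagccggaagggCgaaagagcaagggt
Rps6 and Rps27 start with a C and at least 4 further pyrimidines, and the other two do not at the start that is annotated.

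Among the small-subunit genes, Rps4x, an X-linked gene for a 40S protein, had the smallest p of all members. Its level was 909, 879 and 986 CPM (counts scaled to library size, TMM-normalised) in Control and 1075, 1098 and 1036 CPM in Cationorm. Every Cationorm library lay above every Control library. The log2 fold change was 0.21 ± 0.065 (SE), with an unadjusted p of 0.0136 and an adjusted p of 0.550 (edgeR), so it did not pass the test.

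Rps3a1, which encodes a 40S protein near the mRNA exit, had 702, 677 and 736 CPM in Control and 790, 834 and 765 CPM in Cationorm. Rps6, the 40S protein that S6 kinases phosphorylate downstream of mTOR, had 523, 553 and 546 CPM in Control and 621, 616 and 574 CPM in Cationorm. In both, all Cationorm libraries were above all Control libraries. The log2 fold changes were 0.18 ± 0.062 and 0.16 ± 0.059 (SE), each with an adjusted p of 0.550 (edgeR).

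Rps27, a zinc-binding 40S protein, was the standard small-subunit gene with the lowest fold change. It had 204, 205 and 170 CPM in Control and 127, 168 and 163 CPM in Cationorm. All Cationorm values were below all Control values, though Control 3 and Cationorm 2 were only a little apart, and the lowest value belonged to Cationorm 1. The log2 fold change was -0.34 ± 0.125 (SE; unadjusted p = 0.0301, adjusted p = 0.550, edgeR), and it is taken up below with its identical copy. Rps14, at the small subunit's platform, had 606, 665 and 534 CPM in Control and 488, 560 and 480 CPM in Cationorm. Here the groups overlapped, with Cationorm 2 above Control 3, and the log2 fold change was -0.24 ± 0.100 (SE; unadjusted p = 0.0469, adjusted p = 0.550, edgeR).

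The 2 remaining small-subunit genes set by role had fold changes near or below 0 that did not pass the test. Rpsa, the 40S protein also known as the laminin receptor, had 924, 987 and 890 CPM in Control and 921, 991 and 914 CPM in Cationorm, a log2 fold change of 0.01 ± 0.066. Rps19, which is mutated in Diamond-Blackfan anaemia, had 309, 339 and 272 CPM in Control and 250, 299 and 275 CPM in Cationorm, a log2 fold change of -0.16 ± 0.102. In both genes the groups overlapped.

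Of the large subunit, the genes that were higher in Cationorm at the smallest p were Rpl30 and Rpl10. Rpl30 had 124, 124 and 120 CPM in Control and 150, 128 and 132 CPM in Cationorm, with the highest value in Cationorm 1. Rpl10, a protein that joins the 60S subunit late in its assembly, had 619, 621 and 631 CPM in Control and 667, 704 and 651 CPM in Cationorm. Neither overlapped between the groups, and the log2 fold changes of 0.16 ± 0.074 and 0.11 ± 0.056 (SE) had adjusted p-values of 0.550 each (edgeR). The value of Rpl30 was 0.09 without Cationorm 1, 0.06 with the rows named as its pseudogenes added and 0.01 with all its near-identical copies added, so its size moved with the library left out and with the copies counted.

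The P stalk, the arm of the 60S subunit that recruits translation factors, is built of Rplp0, Rplp1 and Rplp2. Rplp0 was the most abundant member, at 2270, 2348 and 2090 CPM in Control and 2046, 2287 and 2101 CPM in Cationorm (log2 fold change -0.06 ± 0.072). Rplp1 had 717, 774 and 646 CPM in Control and 572, 713 and 611 CPM in Cationorm (-0.17 ± 0.103). All 3 stalk genes were below 0 in fold change, Rplp2 at -0.03, and in all 3 the groups overlapped and the test was not passed (adjusted p of at least 0.578, edgeR).

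Rpl5 and Rpl11 form a particle with 5S rRNA that also binds Mdm2, the ubiquitin ligase of p53. Rpl5 had 736, 771 and 720 CPM in Control and 693, 760 and 686 CPM in Cationorm, and Rpl11 had 450, 455 and 399 CPM in Control and 387, 474 and 394 CPM in Cationorm. Both had a log2 fold change of -0.06, with overlapping groups and adjusted p-values of 0.752 and 0.851 (edgeR). The other abundant 60S genes, Rpl4 and Rpl7, averaged 1301 and 943 CPM in Control and 1320 and 954 CPM in Cationorm.

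The core genes did not separate the groups but moved together from library to library. Of the 76 core genes, 70 were above their own mean over the libraries in Cationorm 2, 54 in Control 1 and 53 in Control 2. Only 8 were above it in Control 3, 13 in Cationorm 1 and 10 in Cationorm 3. Over all genes tested the corresponding shares lay between 47.8% and 54.4% in every library. So 1 Cationorm library stood with 2 Control libraries, and 1 Control library with 2 Cationorm libraries.

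Each step was small. The median core gene lay 0.03, 0.08 and -0.05 (log2) from its mean in Control 1, 2 and 3, and -0.08, 0.09 and -0.07 in Cationorm 1, 2 and 3. The medians of the 40S and the 60S genes lay close to each other in every library, for example 0.09 and 0.08 in Control 2 and -0.07 and -0.09 in Cationorm 1. Of the 91 tested members, 41 had their highest value in Cationorm 2 and 35 in Control 2, where 18.0% and 22.9% of all genes had theirs. The lowest value fell in Cationorm 1 for 36 members and in Cationorm 3 for 29, where all genes gave 15.3% and 14.8%. The summed share of the 10 corneal epithelium markers was high and low in the same libraries, at 6.18%, 6.05% and 5.74% of counts in Control and 5.91%, 6.19% and 5.94% in Cationorm. The retina markers were highest in Control 1 and lowest in Cationorm 2, and so did not follow that order. Of the 3 libraries with high core values, Control 1 and Cationorm 2 were the deepest, at 39193311 and 38542164 counts, while Control 2 had 34742200, fewer than Cationorm 3 at 37012638. The part of epithelial content or of depth in the shared movement was not tested, and with 6 libraries the order is a description only.

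**Figure D2:**
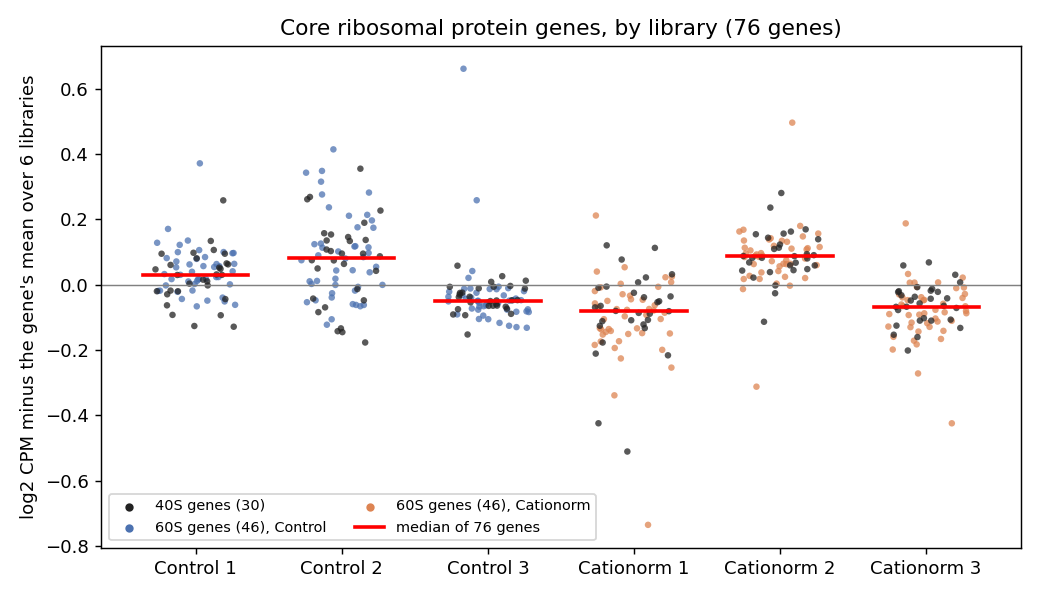
Each point is 1 core gene in 1 library, as log2 CPM minus the gene's mean over the 6 libraries; 40S genes are black, 60S genes are blue in Control and orange in Cationorm, and the red line is the median of the 76. The medians are above 0 in Control 1, Control 2 and Cationorm 2 and below 0 in the other three libraries, and the far points are Rpl24, Rpl17, Rps27, Rpl21 and Rps10.

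The genes of the ribosomal pathway that lie outside the symbol rule did not all follow this order. The 78 genes of the mitochondrial ribosome lay above and below their means in the same libraries as the core, at a median deviation (log2) of 0.02, 0.05 and -0.03 in Control and -0.05, 0.05 and -0.04 in Cationorm. The 40 ribosome biogenesis genes, which process rRNA and assemble the subunits in the nucleolus, lay at -0.05, 0.06 and -0.05 in Control and at 0.08, 0.00 and -0.03 in Cationorm. The median biogenesis gene was thus highest in Cationorm 1, where the core genes were lowest.

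Between the groups, no gene of these lists was called by edgeR. DESeq2 called 1 translation factor, among 46 genes higher and 5 lower of the 18804 tested. Fau, which makes Rps30 as a ubiquitin-like fusion, had 216, 226 and 193 CPM in Control and 192, 217 and 194 CPM in Cationorm, a log2 fold change of -0.08 with overlapping groups. Rack1, a scaffold on the 40S head, had a log2 fold change of -0.05. Of the biogenesis genes, 22 of 40 were higher in Cationorm (median log2 fold change 0.00). At an unadjusted p under 0.05, 1 of 40 was higher and none lower, against 5.16% and 3.57% of all genes. That gene was Bms1, a GTPase of 40S assembly, with 44.4, 40.3 and 44.1 CPM in Control and 51.2, 47.0 and 50.2 CPM in Cationorm. Polr1a, the large subunit of RNA polymerase I, which transcribes rRNA, had 30.5, 33.6 and 38.8 CPM in Control and 41.6, 39.5 and 39.1 CPM in Cationorm. Neither gene overlapped between the groups, and both had an adjusted p of 0.550 (edgeR).

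Translation factors had a median log2 fold change of 0.04, with 20 of 34 higher. At an unadjusted p under 0.05, 3 of the 34 were higher and none lower, against 5.16% and 3.57% of all genes. Without overlap, 7 were higher and 3 lower, against 8.73% and 6.09% of all genes. Eif3c, a subunit of the initiation factor eIF3, had 255, 261 and 273 CPM in Control and 345, 319 and 303 CPM in Cationorm, a log2 fold change of 0.29 ± 0.069 (SE; adjusted p = 0.550, edgeR). Eif5b, which joins the subunits at the start codon, had a log2 fold change of 0.21 ± 0.084 (SE). Of 24 genes of mTOR and Myc control, 10 were higher (median log2 fold change -0.03). Ddit4, an inhibitor of mTORC1, had 44.8, 47.5 and 26.6 CPM in Control and 22.3, 24.7 and 30.7 CPM in Cationorm, with Cationorm 3 above Control 3. Rictor, a subunit of mTORC2, had a log2 fold change of -0.13 ± 0.066 (SE). Of the mitochondrial ribosome 34 of 78 were higher (median log2 fold change -0.03), and Mrps27 and Mrpl40 were lower by -0.38 and -0.25 on the log2 scale, with adjusted p-values of 0.550 (edgeR).

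Levels per length were compared within the core, as CPM per kb of transcript. The median core gene was at 398 CPM per kb and the middle 50% of genes lay between 305 and 668. At the top were Rplp0 at 1613, Rplp1 at 1347 and Rps4x at 1023 CPM per kb, and 12 core genes were over 2 times the median. At the other end were 4 genes under 0.1 times the median, namely Rpl21 at 29.1, Rpl13a at 11.5, Rps10 at 6.60 and Rpl24 at 0.582 CPM per kb. The ribosome holds the proteins of these genes in the same number as most others, and the counts of these 4 rows stood far below.

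**Figure D3:**
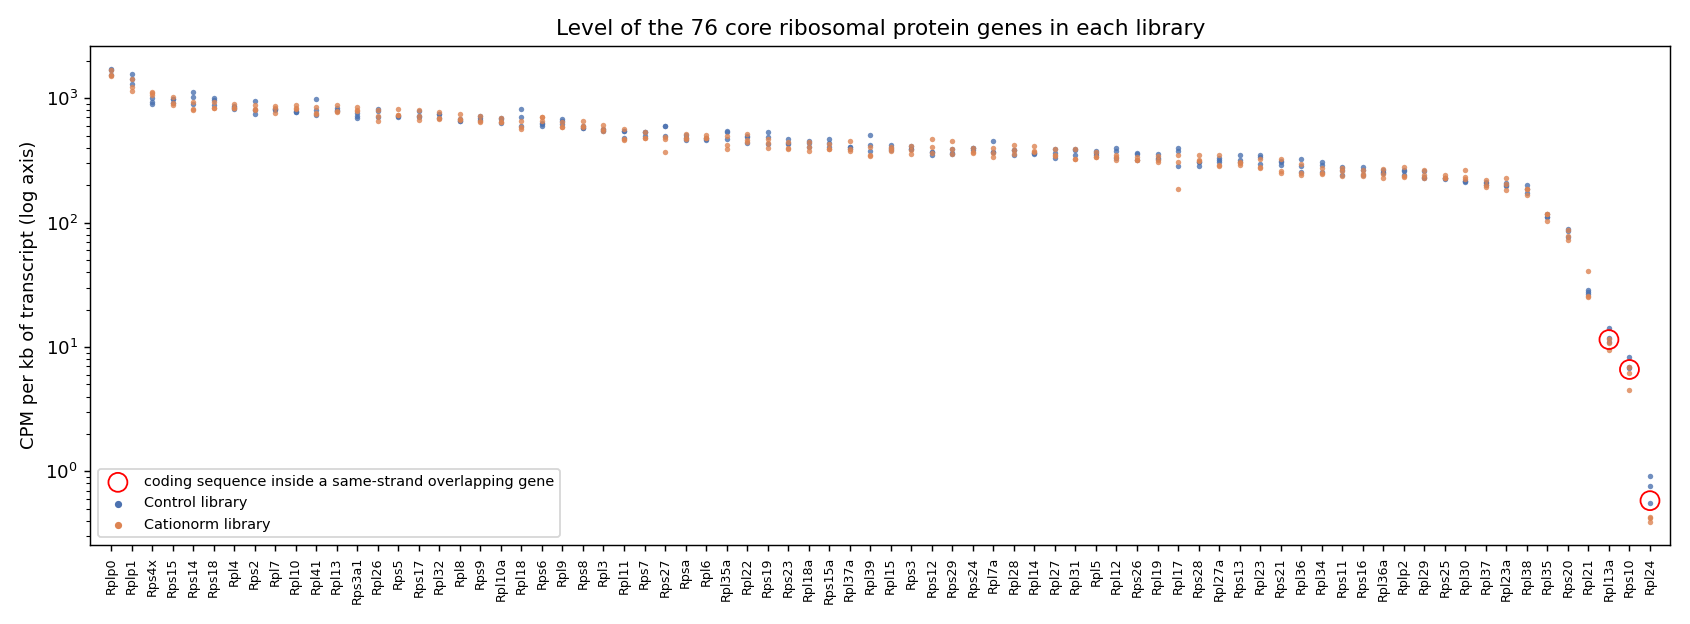
CPM per kb of transcript (log axis) of the 76 core genes in each library, in order of level, with Control in blue and Cationorm in orange; red rings mark genes whose coding sequence lies inside another annotated gene on the same strand. The curve falls slowly from Rplp0 to Rpl38 and then drops to Rpl13a, Rps10 and Rpl24, the 3 ringed genes.

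Of these 4 genes, 3 lie inside another gene. In the mouse annotation of GRCm38 (GENCODE M21), at least 80% of the coding sequence of Rpl24, Rpl13a and Rps10 is also exon of a gene on the same strand, Gm28037, Gm45713 and RPS10-NUDT3. The same is true of Rpl36al, which had 6 to 19 counts a library. Such an overlap holds for 4 of the 84 members with a protein-coding transcript in that annotation, or 4.76%, and for 1.05% of 17739 coding genes. How the deposited counts treated reads that fall in both genes is not given in the sources used here, and the part of the overlap in these low counts was not tested.

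Rpl24 had 15, 18 and 22 counts in Control and 9, 11 and 10 in Cationorm. Its log2 fold change of -0.84 ± 0.341 (SE; adjusted p = 0.550, edgeR) is the lowest of the core and rests on these few counts. Where the counts of near-identical copies were added, an alternative chosen after seeing the data, it was -0.14. Rpl36al was at 0.475, 0.433 and 0.541 CPM in Control and 0.381, 0.212 and 0.160 CPM in Cationorm, a log2 fold change of -0.96 ± 0.405 (SE; adjusted p = 0.550, edgeR). With its near-identical copies, which held 81.0% of the counts of gene and copies, it was -0.53 ± 0.212 (SE; adjusted p = 0.549, edgeR). Both sets of values did not overlap between the groups, but in neither did the test pass.

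Reads from a near-identical copy elsewhere in the genome can be counted in either row. The annotation gives a protein-coding transcript for 84 members. For 77 of these, the table holds a gene or pseudogene at another locus with at least 95% identity over 80% of the coding sequence. Where such copies take counts, a member's own row is uncertain. The split of counts between gene and copy is given below for 3 pairs, and how reads were assigned was not tested.

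Rps10 was at 4.43, 5.37 and 4.36 CPM in Control and 2.92, 4.43 and 3.99 CPM in Cationorm, while its processed pseudogene Rps10-ps2 was at 122 to 140 CPM. The pseudogene row held 96.1 to 97.8% of the sum of both in every library. Rps10 also lies inside RPS10-NUDT3, as given above. The part of the copy and that of the overlap in its low counts cannot be told apart. The pair differs at 5 of 495 coding bases, all of which lie in the stretch from base 384 to base 473, shown here because it is all that tells the 2 rows apart within the coding sequence (GRCm38 transcripts, chromosome 17 and chromosome 16, differences in capitals).
Rps10: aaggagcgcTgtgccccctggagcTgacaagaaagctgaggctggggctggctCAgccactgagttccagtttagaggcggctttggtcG
Rps10-ps2: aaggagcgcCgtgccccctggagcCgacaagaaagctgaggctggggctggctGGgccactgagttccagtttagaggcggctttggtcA
Counted from the first coding base and with the gene's base first, the changes are T393C, T408C, C437G, A438G and G473A. The sum of both rows was 126, 137 and 140 CPM in Control and 132, 145 and 139 CPM in Cationorm, with overlapping groups.

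Rpl17 varied more than any other core gene outside the overlapping ones. It was at 309, 291 and 222 CPM in Control and 144, 238 and 272 CPM in Cationorm, a coefficient of variation (SD over mean of the 6 libraries) of 24.2%. Its pseudogene Rpl17-ps10 went the opposite way, from 148, 164 and 248 CPM in Control to 323, 255 and 194 CPM in Cationorm, and took 32.4% of the pair's counts in Control 1 and 69.2% in Cationorm 1. The sum was nearly level, at 457, 454 and 470 CPM in Control and 467, 493 and 466 CPM in Cationorm, with a coefficient of variation of 2.94%. With the counts of all its near-identical copies added, the log2 fold change of Rpl17 was 0.04 ± 0.056 (SE), against -0.33 ± 0.236 (SE) for its own row.

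Rps27 and the retrogene Rps27rt have the same 252 coding bases and so cannot be told apart there, while the paralog Rps27l differs from Rps27 at 60 of them. The first 90 coding bases show this (GRCm38 transcripts, chromosome 3 for Rps27 and chromosome 9 for the others). In the comparison of Rps27 with Rps27rt no base differs, and in that with Rps27l the differing bases are in capitals, 24 of the 90.
Rps27 and Rps27rt: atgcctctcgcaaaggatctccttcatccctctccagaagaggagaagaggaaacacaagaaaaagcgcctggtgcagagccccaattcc
Rps27, against Rps27l: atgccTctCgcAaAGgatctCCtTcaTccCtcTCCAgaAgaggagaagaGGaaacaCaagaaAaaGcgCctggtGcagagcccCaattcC
Rps27l, against Rps27: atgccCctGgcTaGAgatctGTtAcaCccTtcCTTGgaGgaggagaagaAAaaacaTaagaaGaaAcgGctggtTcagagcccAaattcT
Rps27rt was at 25.1, 23.7 and 38.0 CPM in Control and 58.5, 46.5 and 24.8 CPM in Cationorm, highest in the library where Rps27 was lowest. The sum of the pair was 229, 228 and 208 CPM in Control and 186, 214 and 188 CPM in Cationorm, so that the groups overlapped. When both rows were summed before the test, which was chosen after seeing the data, the log2 fold change was -0.18 ± 0.079 (SE; unadjusted p = 0.0569, adjusted p = 0.549, edgeR). Rps27l, which has no near-identical copy and is a known target of p53, was at 43.5, 51.9 and 39.7 CPM in Control and 39.8, 39.8 and 38.6 CPM in Cationorm (log2 fold change -0.19 ± 0.103, SE).

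**Figure D4:**
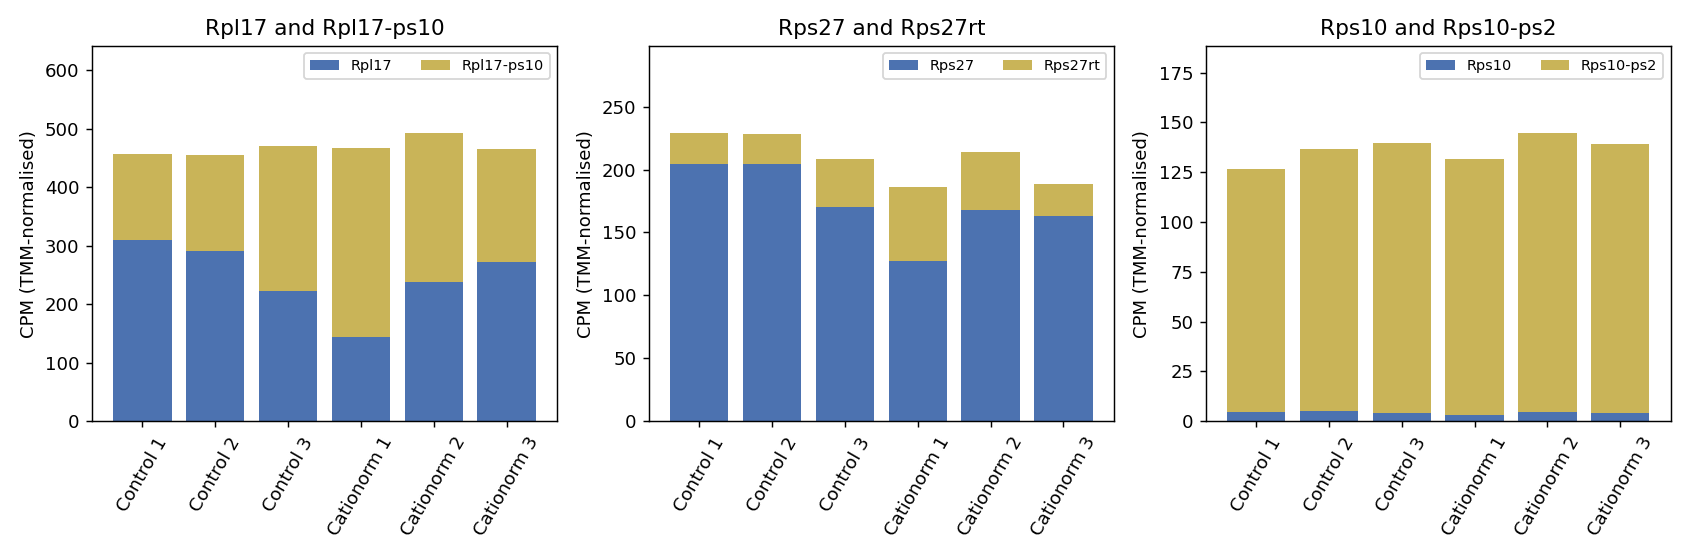
Stacked bars of CPM (TMM-normalised) in each library for a gene (blue) and its copy (yellow), for the pairs of Rpl17, Rps27 and Rps10. The split of the Rpl17 bar moves between 32.4% and 69.2% copy while its height stays between 454 and 493 CPM, and nearly the whole of each Rps10 bar belongs to the copy.

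Rps4x, Rps3a1 and Rps6 depended little on their copies. With the near-identical copies that are not members added, their log2 fold changes were 0.20, 0.17 and 0.15. Their groups still did not overlap, and their adjusted p-values were 0.549 (edgeR). The copies of Rps3a1 that are members, Rps3a2 and Rps3a3, were not added and averaged 5.42 and 7.79 CPM. Rpl21 had 53 near-identical copies in the table, which held 72.4% of the counts of gene and copies together. Its own row was at 51.8, 49.6 and 52.9 CPM in Control and 48.0, 75.3 and 47.0 CPM in Cationorm, with Cationorm 2 apart from the rest. With its copies it was at 192, 185 and 196 CPM in Control and 190, 224 and 188 CPM in Cationorm. Among pseudogene rows, Rps26-ps1 was at 5.00, 2.94 and 9.14 CPM in Control and 14.2, 15.2 and 12.2 CPM in Cationorm, without overlap and at most 6.27% of its sum with Rps26 (adjusted p = 0.550, edgeR). It was chosen after its values were seen. Of the 110 tested rows named as pseudogenes of members, 2 were higher and 14 lower without overlap, against 8.73% and 6.09% of all genes. Their median log2 fold change was -0.13.

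The members outside the core spanned a range of low levels. Of the 15 that were tested, 6 were higher in Cationorm (median log2 fold change -0.02). Rpl7l1, an Rpl7-like protein of ribosome assembly, was the most abundant, at 70.4, 73.2 and 77.4 CPM in Control and 80.7, 79.7 and 67.8 CPM in Cationorm. Rps4l, a gene like Rps4x, had 77.8, 70.2 and 61.8 CPM in Control and 60.2, 71.7 and 60.9 CPM in Cationorm. The groups overlapped in both.

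Rpl22l1, the paralog of the RNA-binding protein Rpl22, had 41.9, 47.0 and 37.6 CPM in Control and 33.7, 39.7 and 37.9 CPM in Cationorm (log2 fold change -0.18 ± 0.104, SE). For its parent Rpl22 the mean was 224 ± 15.1 CPM in the Control and 226 ± 17.6 CPM in the Cationorm libraries (SD, n = 3 each). Rpl37rt and Rpl6l, copies of Rpl37 and Rpl6, averaged 39.0 and 36.6 CPM in Control and 38.4 and 40.2 CPM in Cationorm. They held 16.5 to 19.3% of the sum with Rpl37 and 5.43 to 6.81% of the sum with Rpl6. Rps3a2 and Rps3a3, named as copies of Rps3a1, lay between 4.97 and 9.26 CPM in all libraries and had log2 fold changes of 0.00 and -0.02.

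Rps19bp1 had 14.9, 15.002 and 12.6 CPM in Control and 11.7, 12.1 and 11.9 CPM in Cationorm. All Cationorm values were below all Control values, and the log2 fold change was -0.25 ± 0.109 (SE; unadjusted p = 0.0550, adjusted p = 0.550, edgeR). The lowest of the rest, Rpl32l, Rps23rg1 and Rpl27rt, had at most 27 counts in a library, and Rpl39l, the Rpl39 paralog known from testis, had 32 to 77. For its parent Rpl39 the mean was 266 ± 40.6 CPM in the Control and 225 ± 19.0 CPM in the Cationorm libraries (SD, n = 3 each), with a log2 fold change of -0.24 that did not pass the test (adjusted p = 0.550, edgeR).

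Rpl3l, the paralog that replaces Rpl3 in striated muscle, varied most of all members. It had 181, 30 and 297 counts in Control and 12, 589 and 199 in Cationorm, or 4.53, 0.866 and 8.46 CPM and 0.381, 15.6 and 5.29 CPM. The spread within each group was far wider than the difference between them (log2 fold change 0.63 ± 1.115, SE; adjusted p = 0.854, edgeR), and it was -0.69 without Cationorm 2. Summed skeletal muscle markers were 0.0966%, 0.0186% and 0.168% of counts in Control and 0.0136%, 0.285% and 0.118% in Cationorm. They ranked the 6 libraries in the same order as Rpl3l did, highest in Cationorm 2 and lowest in Cationorm 1, and their part in the values of Rpl3l was not tested. Rpl3 itself stayed between 732 and 817 CPM.

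**Figure D5:**
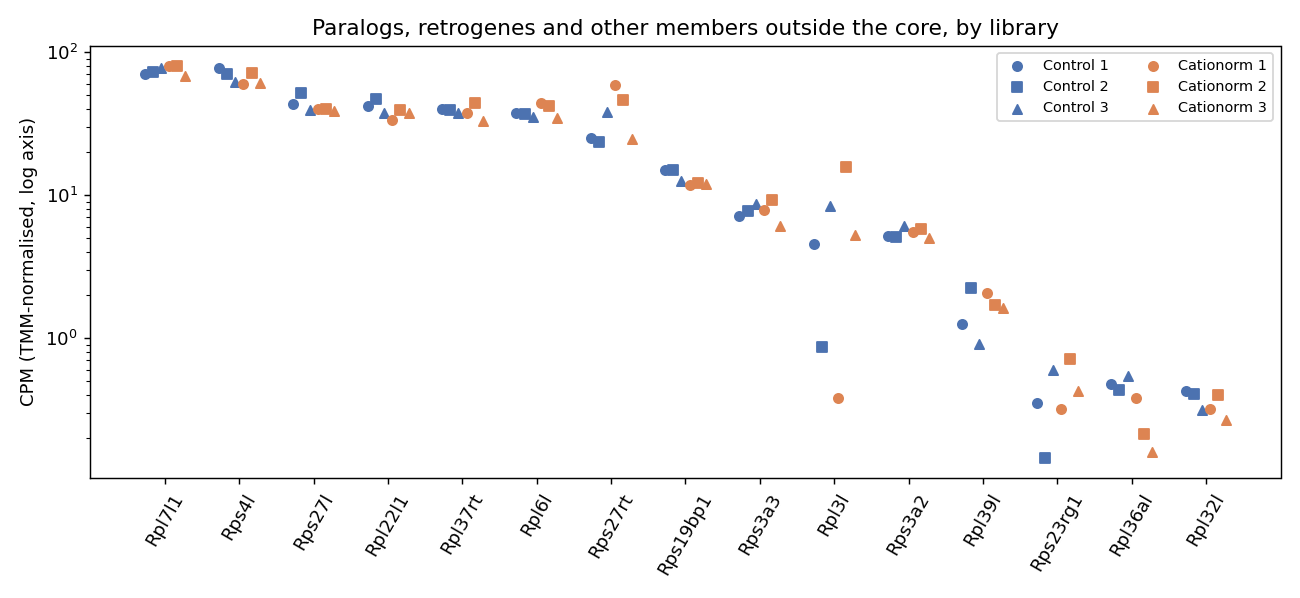
CPM (TMM-normalised, log axis) of the 15 tested members outside the core in each library, with Control in blue, Cationorm in orange and the marker shape giving the replicate. Most genes keep to a narrow band, Rpl3l runs from 0.381 CPM in Cationorm 1 to 15.6 CPM in Cationorm 2, and Rps27rt spans 23.7 to 58.5 CPM.

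Outside such genes, levels were steady. The median coefficient of variation over the 6 libraries was 6.87% for the core, 58 of the 76 were under 10%, and the median over all genes tested was 13.8%. The core genes are far more abundant than the median gene, and no comparison at matched level was made. The steadiest were Rps25 at 3.09%, Rpl6 at 3.25% and Rpl4 at 3.58%.

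The TOP tract was looked for at the annotated starts in RefSeq, as a C at the first base followed by at least 4 pyrimidines, on the transcript's strand only. It stood at 15 of 80 start windows of 68 members, or 18.8%, and at 823 of 32851 windows of all genes, or 2.51%. Within 5 bases of the start to either side, 42.5% of the members' windows and 18.3% of all windows held it. A start that is annotated a few bases off does not show the tract, so no match says only that these letters are not there. The 13 core genes with the tract at the start had fold changes with a median of -0.05 (log2), from -0.34 for Rps27 to 0.16 for Rps6, and the 44 without had one of -0.06.

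The fold change of core genes was also set against transcript length, as a description without a test. The 26 shortest core transcripts, of 345 to 633 bases, had a median of -0.07 (log2) with 7 genes higher, the next 25 one of -0.04 with 8 higher, and the 25 longest one of -0.03 with 11 higher. Spearman's rho between fold change and transcript length was 0.20 over the 76 genes and 0.07 over the 14817 genes with a length, across genes that share the same 6 libraries. By library, the 26 shortest lay 0.05, 0.11 and -0.05 (median log2) from their means in Control and -0.13, 0.09 and -0.08 in Cationorm, and the 25 longest 0.02, 0.04 and -0.05 and -0.06, 0.09 and -0.06.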

How the data were processed

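The deposited table gives raw counts as whole numbers for each gene symbol and library, per the file headers. Libraries were mRNA-enriched and made by Illumina TruSeq protocols, per the labels' protocols. DESeq2 and the builds GRCm39 and mm39 are named in the submitters' processing notes. For the aligner, the counting tool and the use of strand the sources used here give nothing, so overlapping and antisense genes cannot be told apart. Of counts from 1 to 20, 63.9% were even, so a fragment may have added more than 1 count to a gene. Replicates of a group differed by more than sampling noise (the lowest chi-square over its degrees of freedom was 27.7), and the labels give a single batch.

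Each column name matched the library name of 1 sample. Counts were filtered with filterByExpr (18804 genes kept), scaled by TMM and tested with the quasi-likelihood F test of edgeR 4.0.16 (R 4.3.3), Cationorm against Control, with Benjamini-Hochberg adjustment over all genes tested and a threshold of 0.05. Standard errors are the fold change over the root of F, and intervals are 95%. The procedure was tested on simulated counts.

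The members and gene lists were chosen with earlier results of these data known. Genes named are the 5 most abundant members, the 5 with the smallest p in each direction, a fixed set by role (Rpsa, the P stalk, Rpl5, Rpl11, Rps6, Rps19), every member outside the core with its parent, and the 2 genes of smallest p of each pathway list, of which 1 is not reported here; the pairs with copies and the genes at the ends of the level and variation orders were taken after seeing the data. Transcript lengths, overlaps and copies come from GENCODE M21 (GRCm38) and were used through gene names only. In it, 84 of 92 members were found with a protein-coding transcript. Some of the others, such as Rpl32l and Rps3a2, are annotated there as processed pseudogenes. Tried as alternatives were scaling by library size alone, by upper-quartile or by DESeq2 size factors, no filter, a stricter filter, DESeq2 1.42.0, limma-voom (limma 3.58.1), the replicate number as a block, members left out of the scaling, pseudogene or near-identical copies added, and leaving out each library. Copies that are members themselves were left in their own rows.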

Additional observations from a re-analysis of the deposited data

How the results depend on the processing

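No member was called in any of the alternatives run. Leaving out Cationorm 3 called 15 genes higher and 335 lower and DESeq2 46 and 5, none of them members, and the smallest adjusted p of a member was 0.122 and 0.204 there. With library size alone, 23 members were higher (44.1% of all genes), 7 were lower at an unadjusted p under 0.05 (5.09% of all genes), 4 were higher and 9 lower without overlap (6.41% and 8.90% of all genes), and the median log2 fold change of the mTOR and Myc genes was -0.065; over all genes the median moved from 0.01 to -0.03. DESeq2 called 1 translation factor. Adding pseudogene rows raised the members' share of counts from 3.25% to 3.42% in Control and from 3.12% to 3.29% in Cationorm. Leaving out each library in turn gave 0 (without Control 1, 2.26% of all genes) to 5 (without Cationorm 3, 5.84%) members higher at an unadjusted p under 0.05, and 0 (without Control 2, 1.96%) to 11 (without Control 3, 5.49%) lower, with 9 without Cationorm 2 (1.75%) and 1 without Control 1 (1.67%), Cationorm 1 (1.48%) or Cationorm 3 (9.29%). It gave 7 (without Cationorm 2, 11.3%) to 15 (without Cationorm 3, 18.1%) members higher without overlap and 5 (9.19% to 16.9%) to 42 (without Cationorm 2, 12.0%) lower. The members' median log2 fold change ran from -0.12 (without Cationorm 2) to -0.011 (without Cationorm 3). The median ranged from -1.5e-05 to 0.058 for translation factors and from -0.052 to -0.0036 for the mTOR and Myc genes. The cause of these shifts was not tested. Without Cationorm 2, the members lower without overlap went from 5 to 42 of 91. In that setting 1 arm has 2 libraries, and the share over all genes went from 6.09% to 12.0%. Over 41 named genes, 694 fold changes were recomputed and 37 in 16 genes changed sign, none of them called. Low counts limit what can be said of Rpl24, Rpl36al, Rpl32l, Rps23rg1 and Rpl27rt, and a count of 0 never occurred in a member.

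The replicate numbers are shared by both groups, but libraries with the same number did not deviate together (correlations of -0.22, -0.39 and -0.19). The deviations are from means of 3 libraries, so a small shared effect could be missed. Whether the numbers pair the samples is therefore not settled. With the replicate block, 1 member was higher at an unadjusted p under 0.05 against 3 without it, 3 were lower against 4 (2.88% and 1.80% of all genes, against 5.16% and 3.57%), and no member was called (smallest adjusted p 0.699).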
